A study of Mus musculus with 18 samples.

Results

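The genes described here drive or restrain passage through the G1 phase of the cell cycle in organoids of mouse mammary epithelium. They are the D cyclins Ccnd1, Ccnd2 and Ccnd3, the E cyclins Ccne1 and Ccne2, the kinases Cdk4 and Cdk6, the kinase inhibitors Cdkn1b and Cdkn2b, and the transcription factor Myc. The 10 genes were chosen by symbol, with earlier results of these data known, out of 56691 features in the table of the estradiol experiment and 56893 in that of the Torin experiment, and each symbol was found in both. All 10 passed the filter on low counts, among 15358 genes tested in the estradiol experiment and 18112 in the Torin experiment.

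Polyadenylated RNA was sequenced from organoids grown from mammary glands of wild-type nulliparous C57BL/6 females, in 6 groups of 3 libraries. Organoids of mice of about 24 weeks received estradiol at 10 nM, which binds the estrogen receptors, or its vehicle ethanol for 11 days and were collected after 12 days of culture. The deposited estradiol table and its columns carry the tags D1 and J1, which the labels do not explain, and the 11 days are those of the labels. Organoids of mice of about 15 weeks received Torin 1 at 100 nM, which inhibits the kinase mTOR, or its vehicle DMSO, in arms named D6 and D12, and all were collected after 18 days. The titles and the treatment protocol read D6 and D12 as 6 and 12 days of treatment, whereas the series design text has them the other way round, so no statement here rests on which treatment was longer. Further Torin samples that the series text counts are not analysed here. In the labels each arm is also a batch of its own, so that arm, length of treatment and batch cannot be told apart, while Torin and DMSO are compared within an arm. The medium held serum only for the first 24 h of culture. The 3 mice named in the series design are not tied to libraries, and it is not stated whether replicates are mice, cultures or wells, so the p-values speak only of the spread among these libraries, which may be technical.

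As background, D cyclins bind Cdk4 and Cdk6, and E cyclins bind Cdk2. These complexes phosphorylate the retinoblastoma proteins and thereby release E2F factors, which switch on genes for DNA replication. Cdkn1b (p27) binds and inhibits mainly complexes of cyclin E with Cdk2, Cdkn2b (p15) is induced by TGF-beta and blocks Cdk4 and Cdk6, and Myc raises genes for growth and ribosome production. In the mammary gland cyclin D1 is required for the growth of the lobules in pregnancy, and estrogen and growth factor signalling through mTOR both act on the D cyclins.

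Library totals were 20637473 to 24312079 counts with estradiol and ethanol and 23239364 to 28910688 with Torin and DMSO. Replicates spread unequally: as the biological coefficient of variation of the fit, the spread was 5.27% with estradiol and 20.2% with Torin, so smaller changes passed the test in the first. The third Torin D6 library stood apart: its root mean square log2 distance was 0.801 and 0.866 to the other 2 libraries of its group, which were 0.515 apart, against 0.339 to 0.609 between replicates of the other 5 groups. Results that change without it are given below. Because the groups of the Torin experiment share a fit, the spread of a gene in Torin D6 also enters its D12 tests. Keratins and other epithelial markers were present in all groups, with summed levels of 5 luminal markers (Krt8, Krt18, Krt19, Epcam, Cdh1) between 4517 and 8822 CPM, the counts of a gene scaled to a common library size. Immune markers summed to at most 1.91 CPM and adipocyte markers to at most 1.03 CPM. All 5 luminal, 7 basal (Krt5 and Krt14 among them) and 6 fibroblast markers (Col1a1, Col1a2, Col3a1, Pdgfra, Dcn, Lum) had counts in every group, while Cd3e and Adgre1 were at 0 in the 4 groups of the Torin experiment. In bulk RNA, fewer cells of one type and less RNA per cell cannot be told apart.

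All CPM values of single genes below are relative to library totals scaled by the TMM method, and a longer gene gains more counts, so CPM are compared between libraries for one gene and not between genes. The words rose and fell are used for genes with a Benjamini-Hochberg adjusted p under 0.05 in edgeR's quasi-likelihood test over all genes tested.

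**Figure D1:**
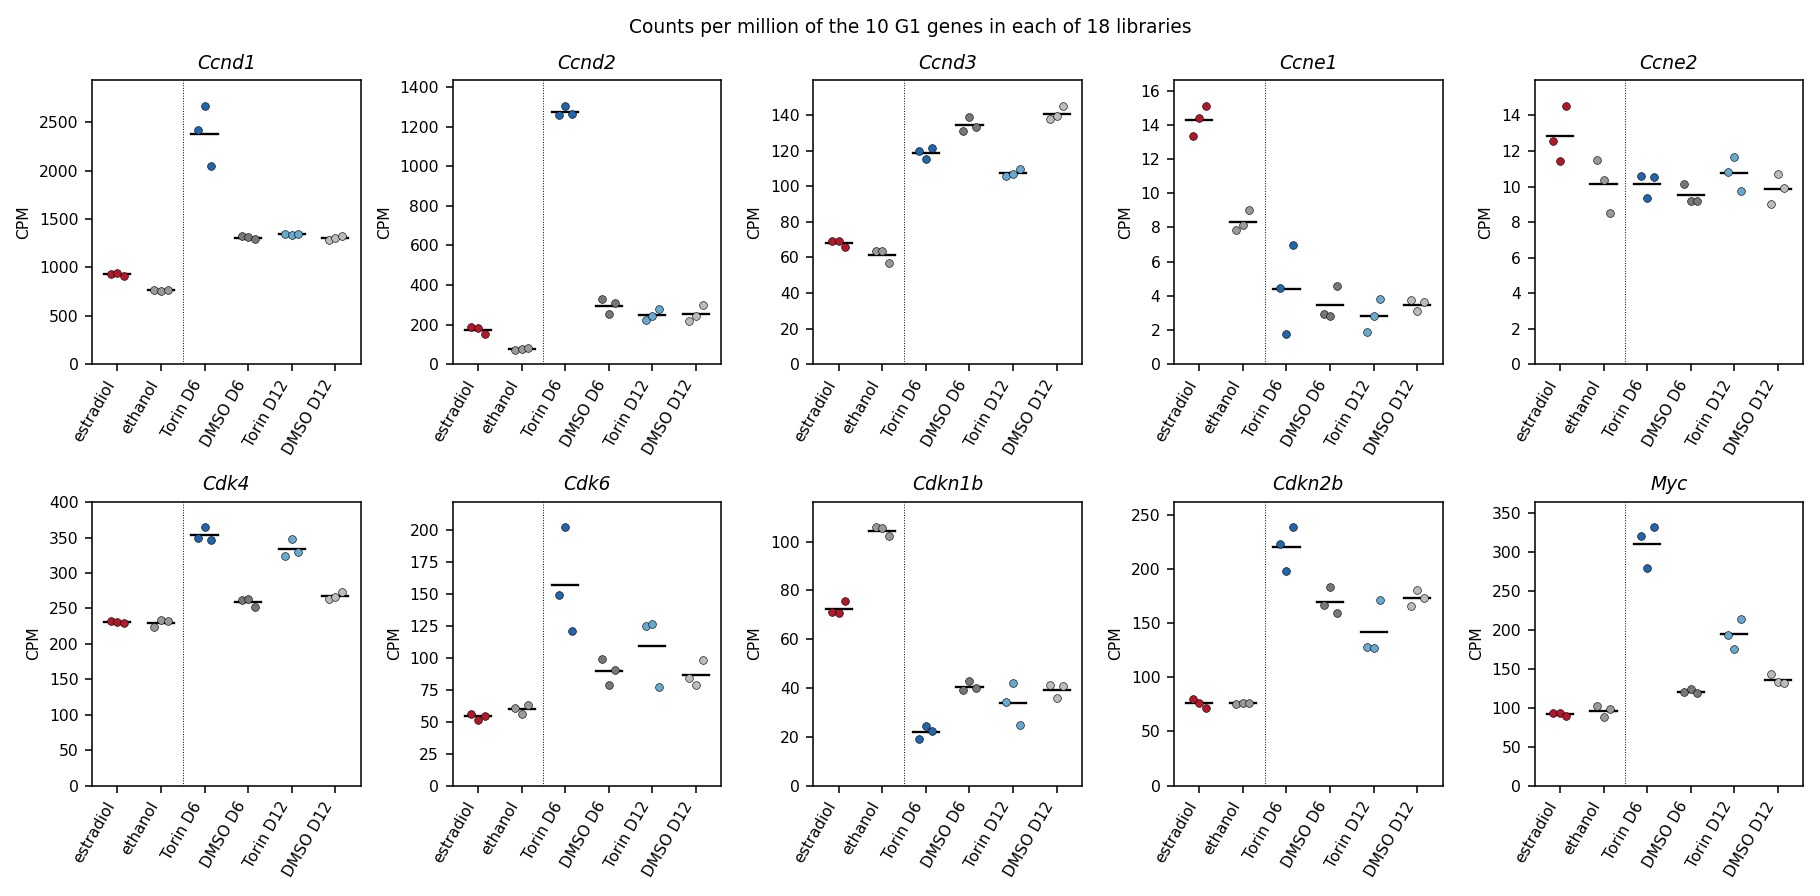
Scaled counts (CPM, vertical axis from 0, one scale per panel) of the 10 genes in each of the 18 libraries; each point is a library, each bar the mean of 3, and a dotted line separates the experiments, which were scaled separately. Ccnd2 lies between 1259 and 1303 CPM in the 3 Torin D6 libraries and at or under 329 CPM in all other libraries, and Cdkn1b is lower in every estradiol library than in every ethanol library.

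With estradiol the D and E cyclins rose and Cdkn1b fell, while no change was detected in Cdk4, Cdkn2b or Myc. Ccnd2 changed most, averaging 174 ± 19.9 CPM with estradiol and 75.8 ± 5.27 CPM with ethanol (SD, n = 3 each), a 2.3-fold difference, followed by Ccne1 with a 1.71-fold difference. Cdkn1b was at 0.693 times the ethanol level. Of the 10 genes 5 rose (Ccnd1, Ccnd2, Ccnd3, Ccne1, Ccne2) and 2 fell (Cdk6, Cdkn1b), where 34% of all genes tested passed (17.4% higher, 16.6% lower). Only 4 of these calls, Ccnd1, Ccnd2, Ccne1 and Cdkn1b, also held in DESeq2 and at an adjusted p under 0.01, and the same 4 held with each library left out in turn. The median log2 fold change was 0.08 over the 10 genes and -0.00604 over all genes.

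Among the D cyclins, Ccnd1, which encodes cyclin D1, was at 934, 945 and 915 CPM in the estradiol libraries, against 765, 760.0 and 771 CPM in the ethanol libraries. The groups did not overlap, and the smallest gap between them exceeded the range within either (log2 fold change 0.28, SE 0.034, adjusted p = 1.72e-05). Ccnd2, which encodes cyclin D2, was at 189, 181 and 151 CPM with estradiol, against 69.8, 77.6 and 79.9 CPM with ethanol. The third estradiol library was the lowest of its group and still well above all 3 ethanol libraries (log2 fold change 1.2, SE 0.074, adjusted p = 1.56e-08). Ccnd3, which encodes cyclin D3, was at 69.2, 69.5 and 66.0 CPM with estradiol, against 63.7, 63.4 and 56.9 CPM with ethanol. These groups were apart by little more than 2 CPM, and the rise (log2 fold change 0.15, SE 0.051, adjusted p = 0.0311) was lost without the first or second estradiol library or the third ethanol library (log2 0.14, 0.14 and 0.11, adjusted p = 0.097, 0.095 and 0.128).

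Of the E cyclins, Ccne1 was at 13.3, 14.4 and 15.1 CPM with estradiol, against 7.83, 8.15 and 9.04 CPM with ethanol. Every estradiol library was higher than every ethanol library (log2 fold change 0.78, SE 0.096, adjusted p = 1.94e-05). Ccne2 was at 12.6, 11.4 and 14.5 CPM with estradiol, against 11.5, 10.4 and 8.50 CPM with ethanol. Here the groups overlapped, since the second estradiol library lay just under the first ethanol library. The rise of Ccne2 (log2 fold change 0.34, SE 0.12, adjusted p = 0.0407) was lost without the first or the third estradiol or the second or the third ethanol library, where log2 values ran from 0.24 to 0.36. With the offsets that the deposited normalized table implies for each gene and library, the value was 0.57 (adjusted p = 0.0159).

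Cdk4, the partner of the D cyclins, was at 232, 230.3 and 230.0 CPM with estradiol, against 224, 233 and 232 CPM with ethanol. The groups overlapped and no change was detected (log2 fold change 0.0066, SE 0.039, adjusted p = 0.914). Cdk6, the second kinase bound by the D cyclins, was at 56.2, 51.5 and 54.6 CPM with estradiol, against 61.1, 56.0 and 62.9 CPM with ethanol. The groups overlapped, and the fall (log2 fold change -0.15, SE 0.054, adjusted p = 0.0449) held only in the fit without the second ethanol library, while without any of the other 5 libraries the log2 value was -0.17 to -0.11 and the adjusted p 0.0535 to 0.184. With the offsets of the deposited normalized table it was -0.43 (adjusted p = 0.000478).

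Of the inhibitors, Cdkn1b was at 71.3, 70.7 and 75.6 CPM with estradiol, against 106, 106 and 102 CPM with ethanol. The highest estradiol library lay far under the lowest ethanol library (log2 fold change -0.53, SE 0.045, adjusted p = 4.97e-07). Cdkn2b was at 80.4, 76.0 and 71.5 CPM with estradiol, against 75.5, 76.6 and 76.2 CPM with ethanol. The ethanol libraries were nearly equal and lay inside the range of the estradiol libraries (log2 fold change -0.0022, SE 0.048, adjusted p = 0.978). Myc was at 93.2, 92.9 and 89.9 CPM with estradiol, against 102, 88.1 and 98.7 CPM with ethanol. The groups overlapped (log2 fold change -0.065, SE 0.054, adjusted p = 0.379). Over the 10 genes 5 had groups that did not overlap, where 46.4% of all genes tested had. Beside these changes the summed fibroblast markers were at 364 to 426 CPM with estradiol, against 239.6 to 273 CPM with ethanol, and 4 of the 6 rose and none fell. The 7 basal markers were at 8344 to 8692 CPM with estradiol, against 7569 to 8203 CPM with ethanol, but Krt14 alone rose (0.24) and 4 fell, Cnn1 (-0.71), Myh11 (-0.52), Oxtr (-0.52) and Acta2 (-0.45), where each value is a log2 fold change. The 5 markers of hormone-sensing luminal cells, Esr1 and Pgr among them, were at 269 to 309 CPM with estradiol, against 284 to 313 CPM with ethanol, where Pgr rose (2.45) and Cited1 (-2.19), Esr1 (-0.92) and Foxa1 (-0.44) fell. The 5 luminal progenitor markers (Elf5, Kit, Aldh1a3, Csn3, Ltf) were at 1631 to 1716 CPM with estradiol, against 1751 to 1815 CPM with ethanol, and 1 rose and 3 fell. Their part in the changes was not tested.

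**Figure D2:**
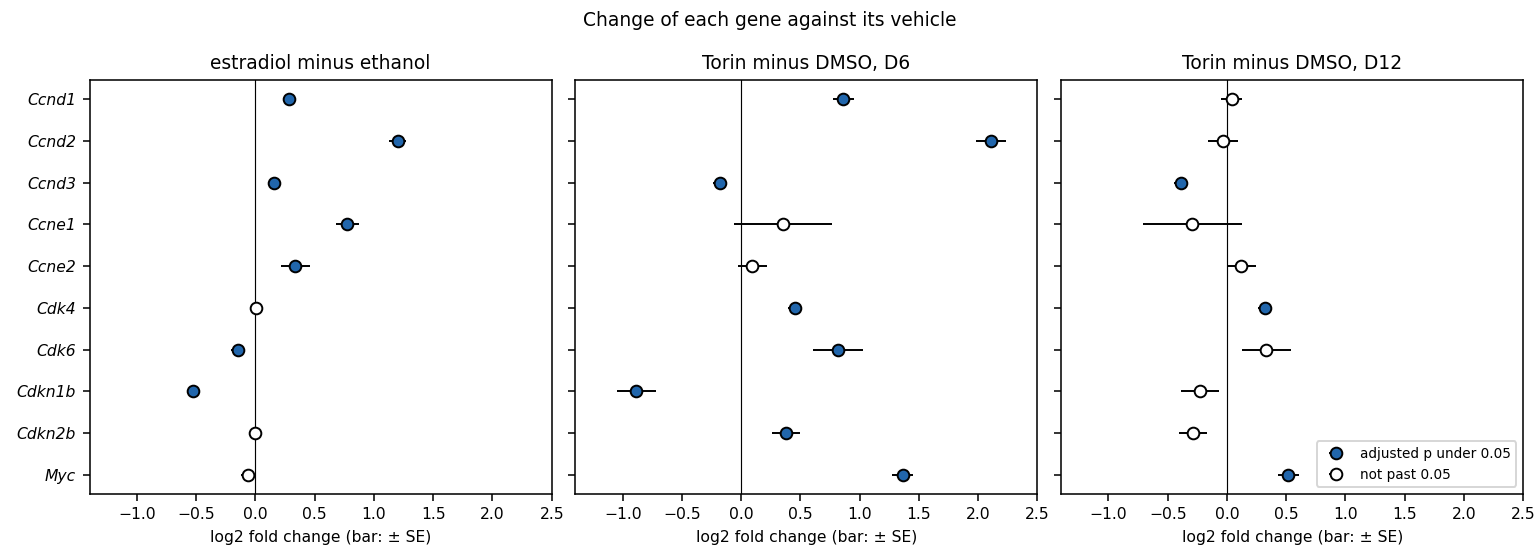
Log2 fold change against the matching vehicle (horizontal axis; bars are ± SE of the edgeR fit) of the 10 genes with estradiol, Torin D6 and Torin D12, filled where the adjusted p was under 0.05. Ccnd2 lies farthest right with estradiol (1.2) and in D6 (2.11) and near 0 in D12 (-0.03), while Cdk4 lies right of 0 in both Torin arms.

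In the D6 arm Torin was accompanied by higher Ccnd2, Myc, Ccnd1, Cdk6, Cdk4 and Cdkn2b and by lower Cdkn1b and Ccnd3. Ccnd2 averaged 1276 ± 24.3 CPM with Torin and 296 ± 39.4 CPM with DMSO (SD, n = 3 each), a 4.31-fold difference, and Myc a 2.57-fold difference. Cdkn1b was at 0.541 times its DMSO level. Of the 10 genes 6 rose and 2 fell, where 39.1% of all genes tested passed (19.8% higher, 19.3% lower), and the groups did not overlap for the same 8, where 48.5% of all genes had groups apart. Neither E cyclin passed. The median log2 fold change was 0.41 over the 10 genes and 0.05 over all genes.

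Ccnd1 was at 2422, 2667 and 2044 CPM in the Torin D6 libraries, against 1319, 1311 and 1294 CPM in the DMSO D6 libraries. The DMSO libraries were nearly equal, while the Torin libraries spread widely and all lay above them (log2 fold change 0.86, SE 0.089, adjusted p = 1.53e-05). Ccnd2 was at 1259, 1303 and 1265 CPM with Torin, against 329, 252 and 307 CPM with DMSO. All 3 Torin libraries, the third included, were alike and several times the DMSO level (log2 fold change 2.11, SE 0.13, adjusted p = 2.86e-07). Ccnd3 was at 120.0, 115 and 122 CPM with Torin, against 131, 139 and 133 CPM with DMSO. The fall (log2 fold change -0.18, SE 0.057, adjusted p = 0.0275) was opposite in direction to the other D cyclins and was lost without the second or the third DMSO or the first or second Torin library (log2 -0.19 to -0.15).

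Ccne1 was at 4.48, 1.77 and 6.95 CPM with Torin D6, against 2.96, 2.82 and 4.55 CPM with DMSO D6. The Torin libraries spread across the DMSO range on both sides (log2 fold change 0.35, SE 0.41, adjusted p = 0.54), and without the third Torin library the value changed sign to -0.15. Ccne2 was at 10.6, 9.35 and 10.5 CPM with Torin, against 10.1, 9.17 and 9.21 CPM with DMSO. The groups overlapped (log2 fold change 0.094, SE 0.12, adjusted p = 0.583).

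Cdk4 was at 350.1, 364 and 347 CPM with Torin D6, against 262, 264 and 251 CPM with DMSO D6. Both groups were tight and far apart (log2 fold change 0.45, SE 0.058, adjusted p = 8.02e-05). Cdk6 was at 149.5, 202 and 121 CPM with Torin, against 98.9, 79.0 and 90.6 CPM with DMSO. All Torin libraries were above all DMSO libraries, with the second Torin library highest and the third lowest (log2 fold change 0.82, SE 0.21, adjusted p = 0.00899; 0.59 to 0.96 with one library left out).

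Cdkn1b was at 19.0, 24.4 and 22.4 CPM with Torin D6, against 39.0, 42.7 and 39.9 CPM with DMSO D6. The groups were far apart (log2 fold change -0.89, SE 0.16, adjusted p = 0.00117). Cdkn2b was at 223, 199 and 239 CPM with Torin, against 167, 183 and 159 CPM with DMSO. The second Torin library lay not far above the second DMSO library, and the rise (log2 fold change 0.38, SE 0.12, adjusted p = 0.0235) was lost without the first or the third library of either group (log2 0.31 to 0.36, adjusted p = 0.0626 to 0.0893). Myc was at 320.0, 279.8 and 331 CPM with Torin, against 119.6, 124 and 119 CPM with DMSO. Every Torin library was more than 150 CPM above every DMSO library (log2 fold change 1.36, SE 0.088, adjusted p = 3.82e-07). Without the third Torin library 7 of the 8 changes remained past the threshold, all but that of Cdkn2b.

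In the same D6 libraries the summed luminal markers were at 7784 to 8822 CPM with Torin, against 5240 to 6150 CPM with DMSO, and the 5 luminal progenitor markers at 816 to 1027 CPM against 1564 to 1732 CPM. Of the luminal markers 3 rose and Krt19 fell (log2 fold change -1.04), and of the progenitor markers Ltf rose (2.58) and the other 4 fell. The basal markers were at 1555 to 1785 CPM with Torin, against 2192 to 2407 CPM with DMSO, where Krt5 alone fell (-3.19) and Cnn1 (0.98), Oxtr (0.46) and Acta2 (0.38) rose. The fibroblast markers were at 256 to 304 CPM with Torin, against 807 to 1201 CPM with DMSO, and all 6 fell. The hormone-sensing luminal markers were at 344 to 410.2 CPM with Torin, against 469.7 to 519.5 CPM with DMSO, where Pgr rose (1.37) and 3 of the 5 fell. The groups did not overlap for any of these 5 lists, and their part in the changes of the G1 genes was not tested.

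In the D12 arm only Myc and Cdk4 rose and Ccnd3 fell. Myc averaged 194 ± 19.4 CPM with Torin and 136 ± 6.71 CPM with DMSO (SD, n = 3 each), a 1.43-fold difference, Cdk4 a 1.25-fold difference, and Ccnd3 was at 0.764 times its DMSO level. That is 2 of the 10 genes higher and 1 lower, where 25.4% of all genes tested passed (10.8% higher, 14.6% lower). All 3 calls held with each of the 6 libraries left out in turn and in DESeq2. The median log2 fold change was 0.004 over the 10 genes and 0.0119 over all genes.

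Ccnd1 was at 1347, 1333 and 1342 CPM in the Torin D12 libraries, against 1288, 1299 and 1327 CPM in the DMSO D12 libraries. The groups were just apart, with a difference too small to pass the test (log2 fold change 0.039, SE 0.088, adjusted p = 0.802). Ccnd2 was at 225, 244 and 277 CPM with Torin, against 219.9, 244 and 299 CPM with DMSO. In CPM the groups overlapped almost fully (log2 fold change -0.031, SE 0.13, adjusted p = 0.893). Ccnd3 was at 106, 107 and 109.9 CPM with Torin, against 138, 139.5 and 145 CPM with DMSO. The Torin libraries were tight and all below the DMSO libraries (log2 fold change -0.39, SE 0.057, adjusted p = 0.000441).

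Ccne1 was at 1.86, 2.84 and 3.81 CPM with Torin D12, against 3.76, 3.08 and 3.61 CPM with DMSO D12. The groups overlapped (log2 fold change -0.29, SE 0.42, adjusted p = 0.675). Ccne2 was at 10.8, 11.7 and 9.76 CPM with Torin, against 9.02, 10.7 and 9.94 CPM with DMSO. These groups overlapped too (log2 fold change 0.12, SE 0.12, adjusted p = 0.53).

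Cdk4 was at 324, 348 and 329 CPM with Torin D12, against 263, 267 and 273 CPM with DMSO D12. The groups did not overlap (log2 fold change 0.32, SE 0.058, adjusted p = 0.00179). Cdk6 was at 125, 126 and 76.9 CPM with Torin, against 84.0, 78.8 and 98.0 CPM with DMSO. The first and second Torin libraries were above all DMSO libraries and the third was below them (log2 fold change 0.33, SE 0.21, adjusted p = 0.283). With the third Torin library of both arms left out, a fit added after the data were seen, Cdk6 passed at a log2 fold change of 0.55 (adjusted p = 0.00315).

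Cdkn1b was at 34.2, 42.1 and 24.9 CPM with Torin D12, against 41.3, 36.1 and 40.7 CPM with DMSO D12. The third Torin library was the lowest and the second the highest of all 6, so the groups overlapped (log2 fold change -0.22, SE 0.16, adjusted p = 0.356). Cdkn2b was at 128, 127 and 172 CPM with Torin, against 166, 181 and 174 CPM with DMSO. The first and second Torin libraries were clearly below DMSO and the third lay within the DMSO range (log2 fold change -0.29, SE 0.12, adjusted p = 0.094). Without the third Torin D12 library Cdkn2b passed at -0.45 (adjusted p = 0.00434). Myc was at 193, 175 and 214 CPM with Torin, against 143, 133 and 131 CPM with DMSO. The groups did not overlap (log2 fold change 0.52, SE 0.086, adjusted p = 0.00107), and over the 10 genes they did not for 4, where 43.7% of all genes had groups apart. The fibroblast markers were at 694 to 1015 CPM with Torin D12, against 815 to 947 CPM with DMSO D12, and 1 of the 6 fell. The basal markers were at 1705 to 2251 CPM with Torin, against 2737 to 2841 CPM with DMSO, where Krt5 (log2 fold change -1.13) and Krt14 (-0.96) fell and Oxtr (1.41) and Trp63 (0.45) rose. The luminal markers were at 4517 to 5890 CPM with Torin, against 6223 to 6547 CPM with DMSO, and 3 of the 5 fell. The hormone-sensing luminal markers were at 339 to 369.5 CPM with Torin, against 375 to 447 CPM with DMSO, where Pgr rose and 3 of the 5 fell. The luminal progenitor markers were at 1585 to 1814 CPM with Torin, against 1482 to 1765 CPM with DMSO, where Ltf (-1.70) and Elf5 (-0.54) fell and none rose. Their part in the changes was not tested.

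The Torin effect was lower in D12 than in D6 for Ccnd2, Myc, Ccnd1 and Cdkn2b. These differences, tested as the interaction D12 minus D6 in the same edgeR fit, covered 4 of the 10 genes, all lower, where 10.6% of all genes tested passed (5.03% higher, 5.55% lower). For Ccnd2 the log2 fold change was -0.031 in D12 and 2.11 in D6, a difference of -2.14 (SE 0.18, adjusted p = 2.68e-05). For Myc it was 0.52 in D12 and 1.36 in D6, a difference of -0.85 (SE 0.12, adjusted p = 0.00108). Myc thus passed in both arms, with a smaller value in D12. For Ccnd1 the difference was -0.82 (SE 0.13, adjusted p = 0.0015). These 3 differences held with each of the 12 libraries left out in turn. For Cdkn2b, whose values had opposite signs in the arms, the difference was -0.67 (SE 0.17, adjusted p = 0.0244). It was lost without the second or the third DMSO D12, the first or the third DMSO D6, the first or second Torin D12 or the first Torin D6 library, with log2 values of -0.82 to -0.57 over the 12 fits.

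For the other 6 genes no difference between arms passed. The Cdkn1b effect was -0.22 in D12 and -0.89 in D6, and the difference of 0.66 (SE 0.23, adjusted p = 0.0954) passed without the third Torin D12 library (0.84, adjusted p = 0.00981) and in DESeq2 (0.67, adjusted p = 0.0499). The differences were -0.13 (SE 0.082, adjusted p = 0.352) for Cdk4 and -0.21 (SE 0.080, adjusted p = 0.132) for Ccnd3, the genes that moved the same way in both arms for which no difference between arms was detected. They were -0.48 (SE 0.29, adjusted p = 0.347) for Cdk6, -0.64 (SE 0.59, adjusted p = 0.548) for Ccne1 and 0.026 (SE 0.17, adjusted p = 0.944) for Ccne2. The standard error for Ccne1 is the widest of the 10.

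The DMSO libraries of the arms did not differ in any of the 10 genes by this test, where 1 of 18112 genes, or 0.00552%, passed. At an unadjusted p under 0.05, 732 genes and none of the 10 differed, and DESeq2 and limma called none of the 10 either. DMSO D12 minus DMSO D6 ran from -0.22 (SE 0.13) for Ccnd2 to 0.17 (SE 0.086) for Myc on the log2 scale. Myc was the only one of the 10 whose DMSO groups did not overlap, higher in D12, where 12.2% of all genes had groups apart.

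Ordered by level within the Torin experiment, Ccnd2 and Ccnd1 stood high in Torin D6. The other 3 groups overlapped for Ccnd2, and for Ccnd1 Torin D12 lay just above both DMSO groups, which overlapped. For Myc the order was Torin D6 (310.3 ± 27.1 CPM), Torin D12 (194 ± 19.4 CPM), DMSO D12 (136 ± 6.71 CPM) and DMSO D6 (121 ± 2.53 CPM). No neighbours in that order overlapped, but the DMSO groups did not differ by the test. For Cdk4 both Torin groups stood above both DMSO groups, and neither the Torin groups nor the DMSO groups were apart from each other. For Cdkn1b Torin D6 was lowest, at 22.0 ± 2.74 CPM, and Torin D12 came next at 33.7 ± 8.61 CPM with a range that reached almost down to Torin D6 and up into both DMSO ranges. For Ccnd3 the order upward was Torin D12, Torin D6 and the DMSO groups, and only the DMSO groups overlapped. For Cdkn2b Torin D6 was highest and Torin D12 lowest in mean, with the third Torin D12 library inside the overlapping DMSO ranges.

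The balance between pairs of the genes within a library was followed as a ratio of raw counts, which does not depend on the scaling of the library. Ccnd2 gave 20.3, 19.2 and 16.6 counts per 100 Ccnd1 counts with estradiol, against 9.13, 10.2 and 10.4 with ethanol. It gave 52.0, 48.9 and 61.9 with Torin D6, against 24.9, 19.2 and 23.7 with DMSO D6, and 16.7, 18.3 and 20.6 with Torin D12, against 17.1, 18.8 and 22.5 with DMSO D12. The estradiol and Torin D6 libraries were thus all above their vehicle libraries, and the D12 groups overlapped. For an inhibitor set against a kinase, Cdkn1b gave 30.8, 30.7 and 32.8 counts per 100 Cdk4 counts with estradiol, against 47.2, 45.3 and 44.1 with ethanol. It gave 5.43, 6.70 and 6.46 with Torin D6, against 14.9, 16.2 and 15.9 with DMSO D6. In D12 it gave 10.5, 12.1 and 7.56 with Torin, against 15.7, 13.5 and 14.9 with DMSO, so that the groups were apart in every comparison. In D12, however, the edgeR test detected no change of Cdkn1b itself (log2 fold change -0.22, adjusted p = 0.356). There Cdk4, the denominator, rose (0.32, adjusted p = 0.00179). How often the groups are apart for other pairs of genes was not computed. Cdkn2b per 100 Cdk4 counts was 39.5, 36.4 and 52.2 with Torin D12, against 63.3, 67.8 and 63.6 with DMSO D12, and 63.8, 54.5 and 68.7 with Torin D6, against 63.6, 69.5 and 63.3 with DMSO D6. The D12 groups were apart and the D6 groups overlapped, both genes being higher with Torin D6. With 3 libraries against 3 an exact permutation test cannot go below a two-sided p of 0.1, so the ratios carry no p.

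**Figure D3:**
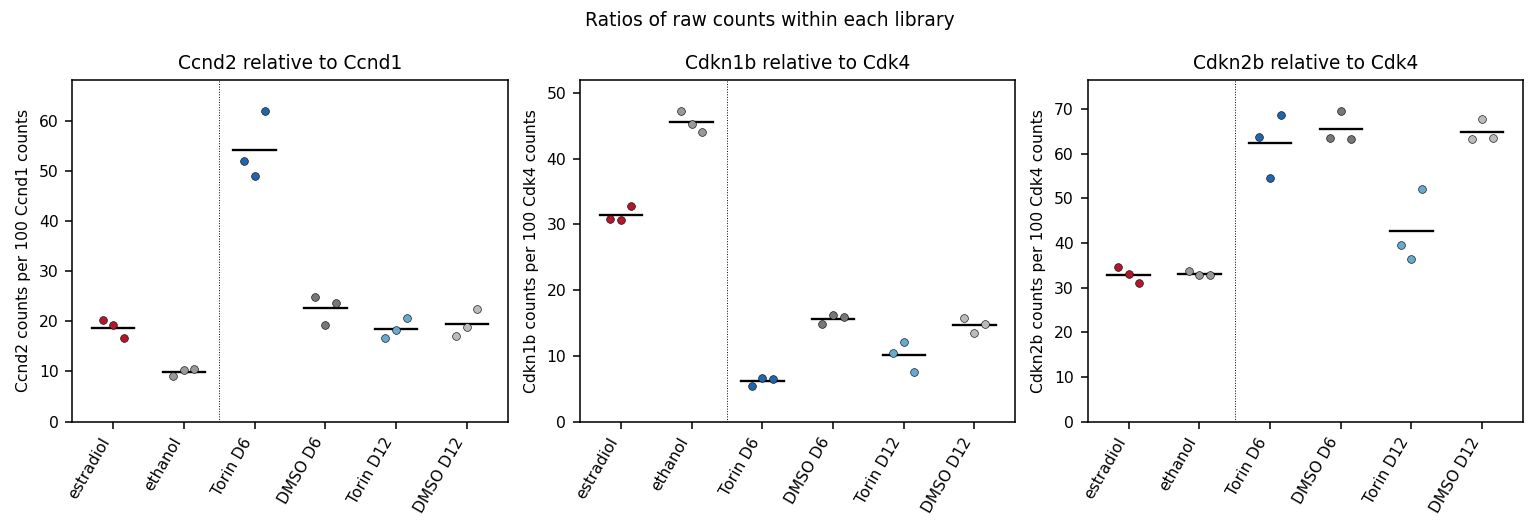
Raw counts of one gene per 100 raw counts of another in each library (points; bars are means of 3; vertical axes from 0), for Ccnd2 over Ccnd1, Cdkn1b over Cdk4 and Cdkn2b over Cdk4. Cdkn1b over Cdk4 is lower in every treated library than in every library of its vehicle, although in D12 Cdk4 rose and no change of Cdkn1b was detected.

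Counts can mix neighbouring genes. Only genes of the GENCODE M21 annotation whose names occur in the Torin counts were looked at. Of these, 8 overlap 6 of the 10 genes on the opposite strand and none on the same strand. Whether the counting used strand is not stated. Tspan31, which overlaps Cdk4, had 4699 to 5417 counts in Torin D6, against 4852 to 5416 in DMSO D6, and 4597 to 5386 in Torin D12, against 5679 to 5832 in DMSO D12, so it did not follow Cdk4. Bysl, which overlaps Ccnd3, had 1271 to 1459 counts in Torin D6, against 480.0 to 604 in DMSO D6, and 771 to 1013 in Torin D12, against 579 to 650 in DMSO D12, opposite in direction to Ccnd3. Ints8, which overlaps Ccne2, had 257 to 1579 counts in Torin D6, against 185 to 244 in DMSO D6, while Ccne2 showed no such spread. LTO1, which overlaps Ccnd1, had 689 to 991 counts in Torin D6, against 576 to 737 in DMSO D6, and 805 to 888 in Torin D12, against 604 to 657 in DMSO D12. Its ranges overlapped in D6, where Ccnd1 rose, and were apart in D12, where no change of Ccnd1 was detected. Gm17590, which overlaps Cdk6, had 5 to 9 counts in Torin D6, against 0 to 1 in DMSO D6, and 4 to 7 in Torin D12, against 0 to 2 in DMSO D12, in the direction of Cdk6 in D6.

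The promoter of Cdk4 is shown because Cdk4 and Myc were the only 2 of the 10 genes that rose past the threshold with Torin in both arms, and it holds the E-box CACGTG, the sequence that Myc with its partner Max binds. A RefSeq promoter window of build GRCm38.p6 was found for 6 of the 10 genes (7 windows), each 250 bases before and 50 after the annotated start. The Cdk4 window holds 4 E-boxes, whose first bases lie 172, 118, 98 and 11 bases before the annotated start. The Cdk6 window holds 1, at 220.0 bases, and Cdkn1b, which fell with Torin D6 and with estradiol, holds none. The upstream 250 bases of these 3 are printed 5′ to 3′ on the plus strand, with each E-box in capitals (chr10:127063285-127063534 for Cdk4, chr5:3343643-3343892 for Cdk6, chr6:134920151-134920400 for Cdkn1b).
Cdk4: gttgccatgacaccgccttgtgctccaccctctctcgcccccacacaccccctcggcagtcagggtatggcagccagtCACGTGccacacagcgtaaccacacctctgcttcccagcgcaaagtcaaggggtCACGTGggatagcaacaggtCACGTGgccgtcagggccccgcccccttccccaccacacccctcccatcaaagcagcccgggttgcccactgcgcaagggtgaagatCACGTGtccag
Cdk6: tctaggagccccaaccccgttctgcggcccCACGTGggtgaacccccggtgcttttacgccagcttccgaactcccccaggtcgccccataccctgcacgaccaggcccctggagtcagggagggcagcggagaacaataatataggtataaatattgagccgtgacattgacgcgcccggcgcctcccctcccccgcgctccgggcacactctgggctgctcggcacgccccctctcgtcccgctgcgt
Cdkn1b: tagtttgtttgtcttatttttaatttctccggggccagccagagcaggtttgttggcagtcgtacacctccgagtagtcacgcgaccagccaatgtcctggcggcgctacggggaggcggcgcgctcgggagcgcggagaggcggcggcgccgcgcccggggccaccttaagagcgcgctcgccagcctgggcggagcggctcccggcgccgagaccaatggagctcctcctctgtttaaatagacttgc
Of 32851 RefSeq promoter windows of the same length, 2349 (7.15%) hold at least 1 CACGTG, which reads the same on both strands, and 8 (0.0244%) hold 4 or more. The cut of 4 is the number found in the Cdk4 window, itself shown partly for its E-boxes, so that share is no test. No window was found for Ccnd1, Ccnd2, Ccne2 or Myc. The windows of Ccnd3, Ccne1 and Cdkn2b hold no E-box. The letters TTTGGCGC or TTTCCCGC of E2F sites are in none of the 7 windows and in 1.56% of all, and the palindromic consensus of the estrogen response element is in none of the 7 and in 0.07% of all. GTAAACA, bound by FOXO factors, is in 1 of the 2 Ccnd3 windows and in 3.65% of all. Both strands were searched, and a match is a description of the letters, not a bound site.

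Other genes of the G1 to S transition were described as a list of 26, all of them tested. This list and those below were also chosen with earlier results of these data known. With estradiol 7 rose and 4 fell, where 34% of all genes passed, with a median log2 fold change of 0.05, and values in brackets or after "by" below are log2 fold changes. Of the inhibitors Cdkn2d, which blocks Cdk4 and Cdk6, fell with a log2 fold change of -0.47 (SE 0.13) and Cdkn2c with one of -0.23 (SE 0.085), while Cdkn1a (p21) rose by 0.16 (SE 0.046). Tfdp1, the partner of E2F factors, rose by 0.27 (SE 0.045), the retinoblastoma relative Rbl1 by 0.27 (SE 0.062), and Skp2, which marks p27 for degradation, by 0.29 (SE 0.11). Among the E2F factors E2f2 rose by 0.25 (SE 0.088), E2f3 by 0.18 (SE 0.067) and E2f6 by 0.26 (SE 0.070), and E2f5 fell (log2 fold change -0.39, SE 0.078). Mnat1, part of the kinase complex that activates other cyclin-dependent kinases, fell (log2 fold change -0.27, SE 0.058). Of these 11 calls 6 were lost in at least 1 fit with a library left out (Cdkn1a without the first estradiol or the third ethanol library, Cdkn2d without the first estradiol or second ethanol library, and Cdkn2c, E2f2, E2f3 and Skp2 in 5 of 6 fits each), and DESeq2 called 7 of the 26.

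With Torin D6, 8 of the 26 rose and 3 fell, where 39.1% of all genes passed, with a median of 0.29. Cdkn2d was at 9.80, 10.2 and 9.68 CPM with Torin, against 35.3, 43.0 and 40.1 CPM with DMSO, a log2 fold change of -2.0 (SE 0.11). Cdkn2a, which encodes p16 and p19Arf, was at 39.2, 50.1 and 28.7 CPM with Torin, against 15.3, 17.6 and 18.6 CPM with DMSO (1.2, SE 0.19). The inhibitors thus moved in both directions. Cdk2 fell (log2 fold change -0.47, SE 0.099), and Cdk7 and Ccnh, which form the activating kinase with Mnat1, rose by 0.36 (SE 0.081) and 0.29 (SE 0.064). Other calls were lost, or gave smaller values, in fits with a library left out, among them the fit without the third Torin D6 library. E2f6 was at 3.29, 4.85 and 33.0 CPM with Torin, against 3.11, 2.10 and 1.99 CPM with DMSO, and its rise of 2.51 (SE 0.70) was 0.74 (adjusted p = 0.0533) without that library. E2f4 was at 13.6, 13.2 and 48.8 CPM with Torin, against 12.2, 9.62 and 7.04 CPM with DMSO, and its rise of 1.39 (SE 0.43) was 0.47 (adjusted p = 0.0675) without it. Both were also lost without the second or the third DMSO library. Tfdp1 and Tfdp2 still passed without it, at 0.50 in place of 1.11 (SE 0.29) and at 0.45 in place of 0.70 (SE 0.16). Cdkn1a (0.29, SE 0.10) was lost without the first or the third library of either group, and Rbl2 (-0.24, SE 0.086) in 5 of the 6 fits with a library left out.

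With Torin D12, 2 of the 26 rose and 7 fell, where 25.4% of all genes passed, with a median of -0.06. Cdkn1a was at 93.6, 92.9 and 104 CPM with Torin, against 220.5, 196 and 229 CPM with DMSO (-1.15, SE 0.10). Its effect in D12 minus that in D6 was -1.43 on the log2 scale (adjusted p = 8.92e-05). Cdkn2d fell here too (-1.57, SE 0.11), as did E2f1 (-1.63, SE 0.28), E2f8 (-1.27, SE 0.20) and Rbl1 (-0.53, SE 0.13). Cdk2 (-0.33, SE 0.099) and E2f2 (-0.66, SE 0.19) fell, each lost in 4 of 6 fits with a library left out, among them those without the second or the third DMSO library. Ccnh rose by 0.27 (SE 0.064), and Tfdp2 by 0.59 (SE 0.16), the second lost in 5 of 6 such fits.

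**Figure D4:**
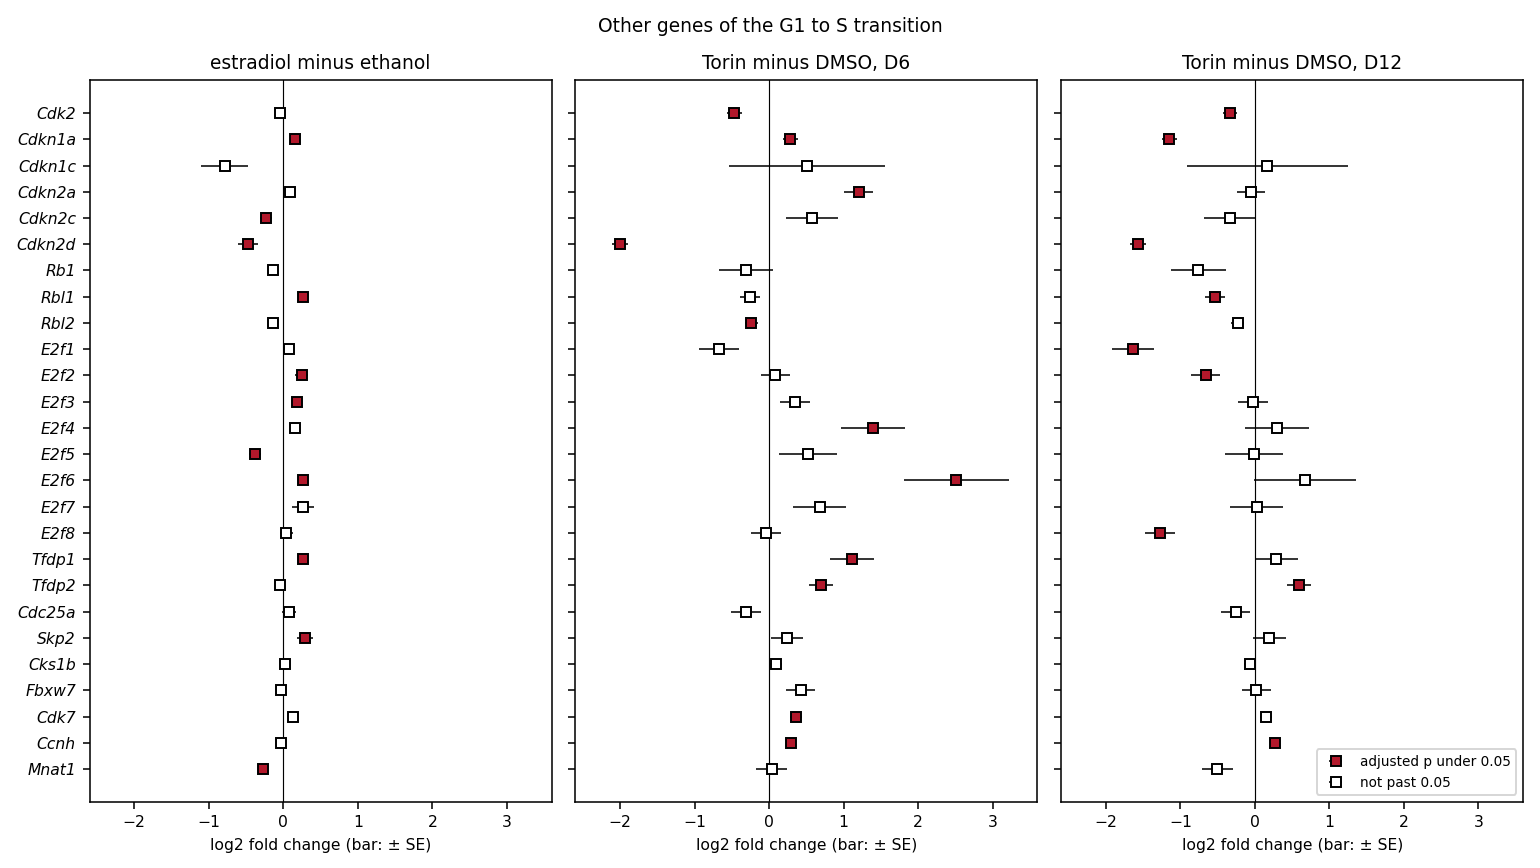
Log2 fold change (horizontal axis; bars are ± SE of the edgeR fit) of 26 other genes of the G1 to S transition with estradiol, Torin D6 and Torin D12, filled where the adjusted p was under 0.05. Cdkn2d lies left of 0 in all 3 panels, and the wide bars of E2f4 and E2f6 in D6 go with the third Torin library.

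Of 12 partners and antagonists of Myc, 4 rose and 1 fell with estradiol, 2 rose and 3 fell with Torin D6, and 2 rose and 2 fell with Torin D12, where 34%, 39.1% and 25.4% of all genes passed. Mycl, a relative of Myc, was at 20.3, 20.1 and 17.8 CPM with estradiol, against 4.93, 5.34 and 3.98 CPM with ethanol (2.02, SE 0.11), a clear separation in a comparison where Myc itself did not pass. It was at 4.21, 4.85 and 10.3 CPM with Torin D6, against 1.24, 1.57 and 1.70 CPM with DMSO D6 (2.10, SE 0.38; 1.58 without the third Torin library). Mycn was at 9.09, 7.05 and 8.61 CPM with Torin D12, against 1.69, 3.54 and 1.51 CPM with DMSO D12 (1.87, SE 0.33). The antagonists, which compete with Myc for Max, moved in both directions. Mxi1 fell with estradiol (-0.48, SE 0.046) and with Torin D12 (-1.23, SE 0.37, lost in all 6 fits with a library left out). In D12 Mxi1 was at 19.1, 15.3 and 14.4 CPM with Torin, against 38.7, 35.2 and 40.1 CPM with DMSO. Its spread in Torin D6 (20.7 ± 15.2 CPM) enters the D12 SE, and no D6 library was left out in those 6 fits. Mxd3 fell with Torin D6 (-1.56, SE 0.22), and Mxd1 fell with Torin D12 (-1.32, SE 0.13). The level of Mxd3 was low, at 1.02, 1.16 and 1.14 CPM with Torin D6, against 3.50, 3.09 and 3.21 CPM with DMSO D6. Mlxipl, a factor of sugar-responsive transcription listed beside the antagonists, fell with Torin D6 (-1.61, SE 0.33). Its level was low, at 0.407, 0.300 and 0.304 CPM with Torin D6, against 1.09, 0.805 and 1.23 CPM with DMSO D6. Mxd4 rose with estradiol (0.19, SE 0.045). Further calls, added after their values were seen, were Mxd4 higher (0.66, SE 0.20) and Mxd1 lower (-0.53, SE 0.13) with Torin D6. Mxd4 spread widely in Torin D6 (54.1 ± 17.2 CPM, against 34.1 ± 3.17 CPM in DMSO D6), and its value with a library left out was not examined. Mycl was also higher with Torin D12 (1.25, SE 0.38). For Max itself, named after its values were seen, no change was detected with Torin D6 (0.083, SE 0.17, adjusted p = 0.738) or D12 (0.034, SE 0.17, adjusted p = 0.917), and with estradiol it rose by 0.15 (SE 0.046).

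Of 20 known Myc target genes, most of them for ribosome production and nucleotide synthesis, 12 rose and 3 fell with estradiol, 16 rose and 2 fell with Torin D6, and 13 rose and 2 fell with Torin D12. Over all genes 34%, 39.1% and 25.4% passed in these comparisons. The list was chosen with earlier results of these data known, so its shares and medians are a description and no test. The median log2 fold changes of the targets were 0.25, 1.00 and 0.65, beside -0.00604, 0.05 and 0.0119 over all genes. Among those that rose with Torin D6, Odc1 (53.5 ± 36.6 CPM), Rrs1 (64.5 ± 50.9 CPM) and Srm (66.3 ± 56.7 CPM) spread widely among the Torin D6 libraries. Their values with a library left out were not examined. Ddx21, a helicase of ribosomal RNA processing, was at 153, 149.8 and 150.0 CPM with estradiol, against 102, 106 and 105 CPM with ethanol (0.53, SE 0.041). It was at 98.4, 99.9 and 97.6 CPM with Torin D6, against 39.5, 32.2 and 35.8 CPM with DMSO D6 (1.46, SE 0.083). In D12 it was at 64.4, 60.3 and 68.0 CPM with Torin, against 32.2, 34.1 and 32.7 CPM with DMSO (0.96, SE 0.082). The groups were far apart in all 3 comparisons. Nop56, a core protein of snoRNA complexes, and Bop1, a ribosome assembly factor, rose with estradiol by 0.58 (SE 0.046) and 0.53 (SE 0.049). Nme1, a nucleoside diphosphate kinase, rose by 1.49 (SE 0.097) with Torin D6 and 1.24 (SE 0.096) with Torin D12. Polr1b, a subunit of RNA polymerase I, rose by 1.33 (SE 0.093) with Torin D6 and 1.08 (SE 0.092) with Torin D12. Ldha, for lactate dehydrogenase, and Tfrc, the transferrin receptor, fell in all 3 comparisons, with log2 fold changes of -0.25 (SE 0.035) and -0.32 (SE 0.047) with estradiol, -1.27 (SE 0.14) and -0.67 (SE 0.081) in D6, and -1.31 (SE 0.14) and -0.86 (SE 0.082) in D12. Both were named after their values were seen, and with estradiol Npm1 fell too (-0.15, SE 0.048).

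Of 17 genes of DNA replication and mitosis, 8 rose and none fell with estradiol, with a median of 0.12. With Torin D6, 6 rose and 10 fell (median -0.82), and with Torin D12, 5 rose and 10 fell (median -1.14), again beside 34%, 39.1% and 25.4% of all genes. With estradiol the replicative helicase genes Mcm2, Mcm5 and Mcm3 rose by 0.43 (SE 0.048), 0.46 (SE 0.056) and 0.38 (SE 0.057). With Torin D6 the mitotic cyclin Ccnb2 was at 14.0, 11.3 and 14.3 CPM, against 42.2, 41.0 and 38.7 CPM with DMSO D6 (-1.62, SE 0.14). Ccnb1 (-1.02, SE 0.12) and the proliferation marker Mki67 (-1.30, SE 0.12) fell as well. With Torin D12 the falls were -1.69 (SE 0.14) for Ccnb2, -1.42 (SE 0.12) for Ccnb1 and -1.80 (SE 0.14) for the mitotic kinase Aurka. A split by role was noticed after the values were seen. In both Torin arms the genes that rose were of the Mcm helicase or Pcna, the sliding clamp of DNA polymerase, from 0.32 (SE 0.097) for Mcm4 to 0.88 (SE 0.14) for Mcm2 in D6 and from 0.30 (SE 0.076) for Mcm6 to 0.75 (SE 0.14) for Mcm2 in D12. The same 10 genes fell in both arms, all of the later cycle: Aurka, Birc5, Bub1, Ccna2, Ccnb1, Ccnb2, Cdk1, Mki67, Plk1 and Top2a. With estradiol all 6 Mcm genes and Pcna were among the 8 that rose, and the 8th was the mitotic kinase Plk1 (0.26, SE 0.066).

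Of 13 genes that act upstream of the inhibitors, through FOXO factors on Cdkn1b and through TGF-beta on Cdkn2b, 3 rose and 6 fell with estradiol, 2 rose and 2 fell with Torin D6, and 1 rose and 2 fell with Torin D12. These shares compare with 34%, 39.1% and 25.4% of all genes. With estradiol Foxo1 was at 209, 216 and 207 CPM, against 315, 277 and 297 CPM with ethanol (-0.49, SE 0.048). The ligand gene Tgfb3 rose by 0.40 (SE 0.040) and the receptor gene Tgfbr2 fell (log2 fold change -0.27, SE 0.043) with estradiol. The ligand gene Tgfb2 fell with Torin in D6 (-0.37, SE 0.089) and in D12 (-0.51, SE 0.089). The receptor gene Tgfbr1 rose in D6 (0.64, SE 0.090) and in D12 (0.29, SE 0.090, lost in all 6 fits with a library left out), and Tgfbr2 fell in D12 (-0.43, SE 0.065). Smad2, which carries the TGF-beta signal to the nucleus, rose with Torin D6 by 0.55 (SE 0.15), and by 0.30 (adjusted p = 0.0138) without the third Torin library.

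The genes whose levels ran most like those of 4 of the 10 over the 12 Torin experiment libraries were found by Pearson correlation of log2 CPM over the 10749 genes that averaged 5 CPM or more. For Ccnd1 they were Rin2 (r = 0.984), Cdh13 (0.984) and Slc4a11 (0.979), and for Myc they were Gnl3 (0.992), Ddx18 (0.99) and Cnn2 (0.989). For Cdkn1b they were Ppm1k (0.978), Tmprss13 (0.975) and Taf7 (0.975), and for Ccne1, at its low level, Slc15a4 (0.901), Peli1 (0.898) and Slc30a9 (0.875). The 12 libraries form 4 groups of 3 that share treatment and arm, so they are not independent points, and no p is given. By Spearman correlation the leading genes differed, and of these 12 names only Gnl3 (0.986, with Myc) was among them.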

How the data were processed

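The 10 members and the gene lists were chosen with earlier results of these data known. RNA from 18 libraries was sequenced on an Illumina NovaSeq in paired ends, from kits that mark strand, per the labels' protocols and the series design. Per the submitters' processing notes the authors used Trim Galore, cutadapt, FastQC, MultiQC, kallisto and DESeq2 with build GRCm39. The deposited estradiol table holds estimated counts per Ensembl gene, 32.2% of them not whole, which were rounded. The deposited Torin table holds whole counts per gene symbol. A normalized table of each experiment, deposited by the authors, gives a signal whose ratio to the raw counts varies by gene as well as by library, used for symbols (39334 in the file, 12739 added from the gene name table) and in alternatives only.

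The experiments were fitted separately, since their tables were made separately. In R 4.3.3 with edgeR 4.0.16, genes were filtered by filterByExpr, scaled by TMM and tested by the quasi-likelihood test on group means, the 4 Torin experiment groups in one fit. Calls are at a Benjamini-Hochberg adjusted p under 0.05 over all genes tested. The alternatives were DESeq2 1.42.0, RLE scaling, no filter, a filter of 1 CPM in 3 libraries, the groups of a contrast alone, a replicate block, offsets per gene and library recovered from that ratio (called length offsets below), limma 3.58.1 on the log2 deposited signal with 1 added (genes averaging 10 or more), an adjusted p under 0.01, and each library left out. Leaving out the third Torin library of both arms, and running the alternatives on list genes, were added after seeing the data. The tests were tried on simulated counts first. Marker sums are CPM of plain totals. Genes named from each list are the 3 called with the lowest p per treatment comparison and every called gene of the other G1 to S list, and those of like pattern the 3 highest correlations, apart from names said to be chosen after their values were seen. Promoter sequences are from RefSeq, build GRCm38.p6, and overlaps from GENCODE M21, neither the build of the files, so no position was carried between them.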

Additional observations from a re-analysis of the deposited data

Results flagged for a closer look

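Differences between the D12 and D6 arms in the Torin effect, each tested as the interaction in edgeR's quasi-likelihood fit over 18112 genes, were past an adjusted p of 0.05 for 4 of the 10 G1 genes and for genes of the pathway lists and the cell type markers, where 10.6% of all genes passed. For the G1 genes the difference D12 minus D6 was -2.14 for Ccnd2 (SE 0.18, adjusted p = 2.68e-05), -0.85 for Myc (SE 0.12, adjusted p = 0.00108), -0.82 for Ccnd1 (SE 0.13, adjusted p = 0.0015) and -0.67 for Cdkn2b (SE 0.17, adjusted p = 0.0244).

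Among the inhibitors, Cdkn1a changed by -1.15 in D12 and 0.29 in D6, a difference of -1.43 (SE 0.14, adjusted p = 8.92e-05). Cdkn2a was at -0.054 in D12 and 1.2 in D6, a difference of -1.25 (SE 0.27, adjusted p = 0.0123). Neither difference was lost with any of the 12 libraries left out.

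E2f8, an E2F repressor, was at -1.27 in D12 and -0.041 in D6, a difference of -1.23 (SE 0.28, adjusted p = 0.0165). Mxd3 was at -0.17 in D12 and -1.56 in D6, a difference of 1.39 (SE 0.31, adjusted p = 0.0133). The differences of E2f8 and Mxd3 held with each library left out, but the level of Mxd3 was low, averaging 1.11 CPM in Torin D6 and 3.27 CPM in DMSO D6. Mxd1 was at -1.32 in D12 and -0.53 in D6, a difference of -0.79 (SE 0.18, adjusted p = 0.0177), lost without the third library of either DMSO group. Mycn was at 1.87 in D12 and 0.15 in D6, a difference of 1.72 (SE 0.45, adjusted p = 0.0324), lost in 8 of the 12 fits with a library left out.

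Of the 20 Myc targets 4 passed, all with a negative difference. Among them Ddx21 was at 0.96 in D12 and 1.46 in D6, a difference of -0.50 (SE 0.12, adjusted p = 0.0168), lost without the first Torin D6 library. Nop56 was at 0.70 in D12 and 1.38 in D6, a difference of -0.67 (SE 0.16, adjusted p = 0.0187), lost without the third DMSO D6 or the first library of either Torin group. Tgfbr2 and Aurka are of other lists. The receptor gene Tgfbr2 was at -0.43 in D12 and -0.0041 in D6, a difference of -0.42 (SE 0.092, adjusted p = 0.0125), lost without the first Torin D12 library. Aurka was at -1.80 in D12 and -1.05 in D6, a difference of -0.75 (SE 0.20, adjusted p = 0.0322), lost in 7 of the 12 fits.

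Mcm6, named after its values were seen, had a difference of 0.41 (SE 0.11, adjusted p = 0.0319). Of the cell type markers the difference passed for 3 of 5 luminal markers, all lower, and for 5 of 6 fibroblast markers, all higher. It passed for 3 of 7 basal markers, Krt5 (2.07), Oxtr (0.95) and Trp63 (0.64), and for 2 of 5 hormone-sensing luminal markers, Cited1 (0.99) and Esr1 (0.72). Of the luminal progenitor markers 4 of 5 passed in both directions, Csn3 (1.22), Aldh1a3 (1.13) and Kit (0.65) higher and Ltf (-4.28) lower.

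Arm, length of treatment and batch cannot be told apart in these differences. No gene's values within a group of 3 libraries were tested for an outlying library.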

How the results depend on the processing

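Of the 10 G1 genes, 7 changed with estradiol, against 4 in DESeq2, 4 at an adjusted p under 0.01 and 4 to 6 with 1 library left out. With Torin D6 the count was 8, and 6 to 7 with 1 library left out. With Torin D12 it was 3, and 3 to 4 with 1 library left out, and 5 with the third Torin library of both arms left out, where Cdk6 (0.55) and Cdkn2b (-0.43) passed. For the difference between arms it was 4, and 3 to 5 with 1 library left out, and for DMSO D12 against DMSO D6 it was 0 in every fit. The cause of these moves was not tested.

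Values that changed sign were small, and none of them passed the test. In the limma fit, and with length offsets, they were -0.0197 and -0.0184 for Ccnd1 with Torin D12, -0.0299 and -0.0296 for Ccne2 with Torin D6, -0.0212 and -0.0196 for Cdk4 with estradiol, 0.0074 and 0.0092 for Cdkn2b with estradiol, and -0.0105 and -0.0312 for Ccne1 between the DMSO groups. Others were 0.0071 in DESeq2 and 0.0193 with no filter for Cdkn2b with estradiol, -0.0055 in the DMSO groups alone for Ccne1, -0.0035 with length offsets for Ccne2 between the DMSO groups, and -0.149 for Ccne1 with Torin D6 without the third Torin libraries. With 1 library left out, the ranges that crossed 0 were, with estradiol, -0.0076 to 0.0223 for Cdk4 and -0.0427 to 0.0414 for Cdkn2b, with Torin D6, -0.1499 to 0.7258 for Ccne1, with Torin D12, -0.1264 to 0.1002 for Ccnd2, and for the difference between arms, -0.0363 to 0.0913 for Ccne2. Between the DMSO groups they were -0.0163 to 0.0049 for Ccnd1, -0.1097 to 0.2692 for Ccne1, -0.0043 to 0.1165 for Ccne2, -0.1372 to 0.0348 for Cdk6, -0.0796 to 0.0166 for Cdkn1b and -0.0101 to 0.092 for Cdkn2b.

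At an adjusted p under 0.01 the counts over all genes were 3397 of 5220 with estradiol, 4586 of 7088 with Torin D6, 2733 of 4592 with Torin D12 and 842 of 1917 for the difference between arms. At an adjusted p under 0.05 the count of 1917 for the difference between arms was 3308 without the third Torin libraries and 1219 without the third DMSO D6 library. Between the DMSO groups 1 gene passed, against 4 with no filter, 12 in DESeq2 and 16 in those groups alone. In the list of other G1 to S genes the estradiol count of 11 ran from 5 to 11 over the alternatives, that of 11 with Torin D6 from 6 to 13 and that of 9 with Torin D12 from 5 to 13. For Myc partners the counts of 5, 5 and 4 ran from 3 to 6, 4 to 8 and 2 to 7. For the upstream genes the counts of 9, 4 and 3 ran from 6 to 9, 2 to 6 and 2 to 6. For Myc targets the counts of 15, 18 and 15 ran from 12 to 17, 16 to 18 and 13 to 20, and for replication and mitosis those of 8, 16 and 15 ran from 5 to 9, 14 to 16 and 13 to 15.

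Replicates that share a number did not deviate together (correlations from -0.094 to 0.047 over the 4 pairs of groups), so the numbers give no pairing. With a replicate block 6, 8, 3, 4 and 0 of the 10 genes passed with estradiol, with Torin D6, with Torin D12, for the difference between arms and between the DMSO groups, and the call lost was that of Ccne2 with estradiol (0.34, adjusted p = 0.0678). With 3 libraries a group, Ccne1 at under 7 CPM in the Torin experiment is the least precisely measured of the 10.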

Other observations

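The vehicle levels of the G1 genes in the 2 experiments were scaled separately and come from mice of different ages, cultures of different lengths and different batches, so they are given side by side with no test. Cdkn1b was at 106, 106 and 102 CPM in the ethanol libraries and at 39.0, 42.7 and 39.9 CPM in the DMSO D6 libraries. Ccnd2 was at 69.8, 77.6 and 79.9 CPM with ethanol and 329, 252 and 307 CPM with DMSO D6, and Ccnd1 at 765, 760.0 and 771 CPM and 1319, 1311 and 1294 CPM. Ccne1 was at 7.83, 8.15 and 9.04 CPM with ethanol and 2.96, 2.82 and 4.55 CPM with DMSO D6.

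The raw count per unit of the deposited normalized signal differed between libraries for some of the genes, beyond the factor common to each library. Relative to its geometric mean over the experiment it was 1.25, 1.29 and 0.947 for Ccnd2 in Torin D12, against 0.937, 0.954 and 1.05 in DMSO D12. For Cdk6 it was 1.13, 1.09 and 1.1 with estradiol, against 0.917, 0.884 and 0.911 with ethanol, and these groups did not overlap. For Ccne2 it was 0.892, 0.731 and 1.21 with estradiol, against 1.07, 1.07 and 1.1 with ethanol. With these factors as offsets the Cdk6 and Ccne2 calls with estradiol kept their direction and passed, with larger values, and the Ccnd3 calls with estradiol and Torin D6 were lost. Ccnd2 did not pass with them in D12 either. Its deposited signal was 4822, 5078 and 7813 with Torin D12, against 6279, 6841 and 7644 with DMSO D12. The first and second Torin libraries thus lay below all DMSO libraries on that signal, and the third above them.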
